A study of Homo sapiens with 24 samples.

Results

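The m1A peaks of ALKBH3 knockout cells were set against those of the untreated wild-type cells that served as controls of a stress experiment. N1-methyladenosine (m1A) is a methyl mark on adenosine that blocks base pairing and puts a positive charge on the base. ALKBH3 is a dioxygenase of the AlkB family that removes alkyl groups from single-stranded nucleic acids, m1A among them. In mRNA, m1A has been mapped mainly near the 5′ end and the start codon.

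All cells were HEK293T, a human embryonic kidney cell line grown in medium with 10% serum. The knockout cells (KO) carried the genotype "ALKBH3 Knockout" and no treatment. The controls (UT) were wild type and untreated. A second pair of untreated wild-type samples (WT) was taken as part of the knockout experiment. Further wild-type samples were given 50 µM H2O2 for 30 min (H2O2) or kept for 16 h without serum (Starve). Every group had 2 replicates. No label says whether the knockout is 1 clone or whether replicates were separate cultures. In each library polyadenylated RNA was immunoprecipitated with an anti-m1A antibody and compared with input RNA, and the authors called peaks on each replicate.

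Peaks of the 2 KO and 2 UT lists sharing at least 1 nt of the same transcript were merged into 18316 regions on 12085 transcripts of 6813 genes. A region counted as KO-only when both KO lists and neither UT list held a peak in it, and as UT-only in the reverse case. There were 1316 KO-only regions (7.18% of all regions), 852 UT-only regions (4.65%) and 418 regions in all 4 lists (2.28%). Of the KO-only regions, 853 had no peak in either WT list and were thus absent from all 4 wild-type lists without a treatment (4.66% of all regions). The remaining 15730 regions had another pattern: 5672 lay in the first UT list alone and 7193 in the second UT list alone. Just outside the KO-only class were 345 regions in both KO lists and the first UT list and 277 in both KO lists and the second UT list. Isoforms repeat a signal, so the KO-only regions, which lay on 1295 transcripts, came from 827 genes, the 853 from 539 genes, the UT-only regions from 512 genes and those in all 4 lists from 270 genes. A gene is called KO-only or UT-only where it has such a region, and it may also have regions of other classes. A peak list holds no value for an uncalled stretch, so absence means not called. An RNA present at a lower level cannot be told apart from an RNA with less m1A.

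The KO and UT lists differed in more than the genotype. The KO lists held 3447 and 3524 peaks, and the UT lists 7871 and 9295. The 2 WT lists held 2175 and 3410 peaks. They were taken as 1 experiment with the KO lists only because the peak names of both share a form. The UT, H2O2 and Starve lists do not use that form. Which cells the UT lists come from is itself in doubt: their peak names carry the letters WT, and the labels of the UT samples point to the Starve lists, so the name of the lists was followed. Genotype and experiment therefore cannot be told apart between KO and UT, which is why the WT lists are given beside each result. Total reads per library are not given in the sources used here. Depth can be judged only roughly, by the number of reads piled up at a peak's summit (pileup). Its median was 119 and 111 in the KO lists, 56 and 44 in the UT lists and 67 and 113 in the WT lists. These medians also depend on which peaks a list holds. At the 418 regions in all 4 lists they were 190.5 and 178.5 in KO and 161 and 136.5 in UT. No list held a peak on ALKBH3 (0 in each of the 10), which leaves the knockout unchecked here. Of 9 genes listed as markers of HEK293 cells, 3 had a region (NEFL, NEFM and VIM), and of 15 markers of other cell types only COL1A1 did. A peak list does not give expression, so the cell type was not checked further.

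The first bases of a few regions are shown as examples of the sequence at the 5′ edge of regions in each class. For genes with 1 RefSeq transcript whose region began within the first 21 nt, the 30 bases from the region's first base are printed 5′ to 3′ for the 3 regions per class that ranked highest by fold, with adenosines, the bases that m1A can mark, in capitals. The sequences are from RefSeq (GRCh38.p14), and it was not tested whether each transcript in the lists starts at the same base.
PRDX4 (KO-only): gcccggcggcggcAgAAgcggcgctcgcgc
EEF2 (KO-only): cgccAtcctcggcgcgActcgcttctttcg
BNIP3 (KO-only): gccgcggcgctccgAcctccgctttcccAc
ANKRD40 (UT-only): cccggAgccggccttcgggAggcgcggccc
ANKS6 (UT-only): ggcggAgccgAcgcggccggcggggcggAc
TTYH3 (UT-only): cggAgccgAgcgcAgccgAgccgggccgAg
LAMTOR1 (all 4): AtgtgAccggAAgggctcctcAcggAcgcc
GABARAP (all 4): cgtggAtcgctccgctgAAtccgcccgcgc
PSMB4 (all 4): AAgcgtttttggggtcgcggtccggActtt

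These stretches lie at chrX:23667511-23667540 on the plus strand (PRDX4), chr19:3985416-3985445 minus (EEF2), chr10:131981875-131981904 minus (BNIP3), chr17:50707874-50707903 minus (ANKRD40), chr9:98796519-98796548 minus (ANKS6), chr7:2631987-2632016 plus (TTYH3), chr11:72103268-72103297 minus (LAMTOR1), chr17:7242413-7242442 minus (GABARAP) and chr1:151399592-151399621 plus (PSMB4). Bases G and C made up 86.7%, 66.7% and 76.7% of the KO-only stretches, 86.7%, 90.0% and 83.3% of the UT-only ones, and 66.7%, 73.3% and 56.7% of those in all 4 lists. The number of adenosines was 3, 2 and 2 in the KO-only stretches, 2, 3 and 5 in the UT-only ones and 6, 3 and 3 in those of all 4 lists. These stretches are only the 5′ edge of their regions, and the marked base may lie outside them. For PRDX4, printed from nt 19 to 48, the summits in the KO lists lay at nt 102 and 101.

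The first 50 transcribed bases were compared over whole classes, although most regions start further on. They could be matched for 667 of 827 genes with a KO-only region, whose median G and C content was 70.0% with an interquartile range of 64.0% to 76.0%. The median was 72.0% for 426 matched UT-only genes and 72.0% for 220 matched genes with a region in all 4 lists. All 5561 matched genes with any region had a median of 70.0%, while over all 27305 promoters that were listed the median was 60%. Among genes whose region starts in those bases, the median was 70.0% for 147 matched KO-only genes, 68.0% for 83 genes with such a region absent from WT and 74.0% for 137 UT-only genes. No KO-only summit lay in the first 60 nt, but few of any class did. The share was 0.94% for UT-only regions, 0 of 418 for regions in all 4 lists and 0.46% over all 18316 regions. The motif GTTCNA, which resembles the T-loop of tRNA that the m1A writer TRMT6/TRMT61A recognises, was searched in the same 50 bases. It occurred on the transcribed strand in 13 of the 667 KO-only genes (1.95%), in 6 of the 426 UT-only genes (1.41%), in 6 of the 220 genes of all 4 lists (2.73%) and in 2.35% of all promoters. On either strand the shares were 2.70%, 2.82%, 3.64% and 4.46%. These are counts of letters in this window only.

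KO-only regions outnumbered UT-only regions, although the UT lists were longer than the KO lists. The KO lists shared 2356 regions, of which the first UT list held 32.4% and the second 29.5%, and of 1501 regions in both UT lists 36.5% and 34.6% were in the KO lists. The order of the 2 classes depended on how they were counted. By gene, 416 genes had a peak in both KO lists and none in UT, and 1001 the reverse. With 1 transcript per gene there were 819 KO-only and 507 UT-only regions. With the 3447 best peaks of each list by p-value there were 1611 KO-only, 225 UT-only and 278 shared regions, and with peaks of at least 4-fold enrichment 653, 408 and 104. Leaving out the first KO list gave 2051 KO-only regions and leaving out the second gave 1987, since 1 list then sufficed. Without the first UT list 8054 regions were UT-only and 693 in all lists, and without the second 6532 and 763, and the order of the classes turned. Without the first KO list 1458 KO-only regions were absent from all wild-type lists, and without the second 1376. That count was 478 at 4-fold, 527 with 1 transcript per gene and 250 by gene. With the Starve lists in place of UT, which the labels of the UT samples also name, the classes were nearly equal, at 978 and 948.

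The lists that had no part in choosing the regions show how far each class recurred. The same shares were not computed over all 18316 regions, so the classes cannot be set against regions in general. Of the 1316 KO-only regions, 191 had a peak in the first WT list (14.5%, 95% Wilson interval 12.7% to 16.5%) and 408 in the second (31%, 28.6% to 33.6%). Both WT lists held 136 (10.3%), the first alone 55, the second alone 272 and neither 853 (64.8%, 62.2% to 67.4%). These and the later Wilson intervals cover counting error only. They take regions as independent, so they are too narrow where isoforms repeat a signal. The UT-only regions had WT peaks at nearly the same rate: 133 of 852 in the first WT list (15.6%, 13.3% to 18.2%) and 239 in the second (28.1%, 25.1% to 31.2%), with 585 in neither (68.7%, 65.5% to 71.7%). Regions in all 4 lists were the most often called, with 221 of 418 (52.9%, 48.1% to 57.6%) in the first WT list and 329 (78.7%, 74.5% to 82.4%) in the second. In both WT lists there were 212 of these 418 (50.7%), against 10.3% of KO-only and 12.3% of UT-only regions.

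In the H2O2 lists, 22.3% and 23.8% of the KO-only regions had a peak, and in the Starve lists 26.5% and 28.7%. For UT-only regions the shares were 32.7% and 19.5% in H2O2 and 36.6% and 26.6% in Starve. In the first list of H2O2 and of Starve the share was higher for UT-only than for KO-only regions, and in the second list of each it was lower, so neither class was called more often across both replicates. Of regions in all 4 lists, 67.9% and 54.3% had a peak in H2O2 and 72.5% and 58.6% in Starve. Over all 2356 regions in both KO lists, the WT lists held 24.4% and 46.1%, the H2O2 lists 34.2% and 30.1% and the Starve lists 40.3% and 38.2%. The second WT list thus held the highest share of KO regions, with fewer peaks than any H2O2, Starve or UT list. Over the 1501 regions in both UT lists, the WT lists held 29.1% and 48.0%. The H2O2 lists held 45.5% and 32.3% of them and the Starve lists 50.2% and 38.6%.

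**Figure D1:**
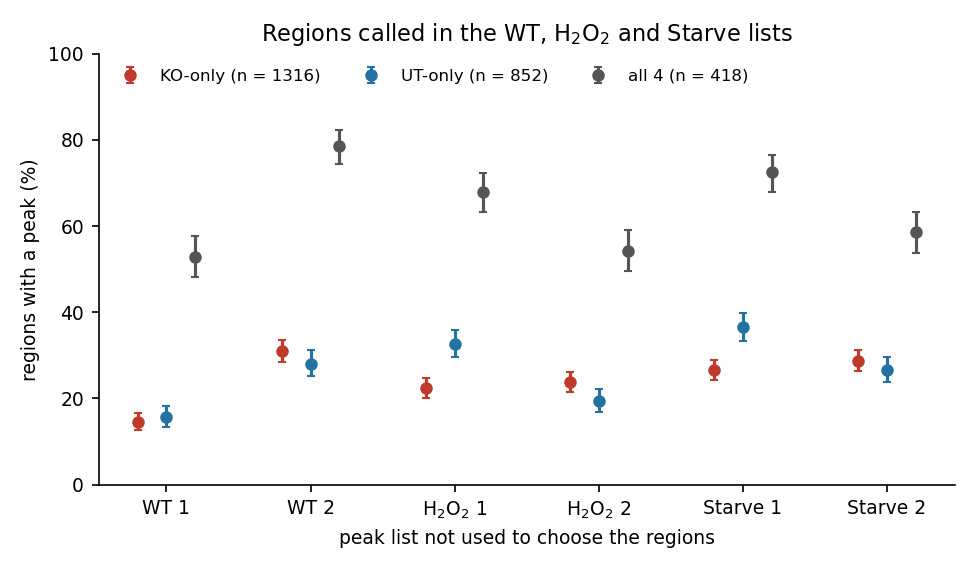
Share of regions of each class with a peak in each of the 6 lists that did not choose them (vertical axis, percent; points, with 95% Wilson intervals), by list (horizontal axis). KO-only and UT-only regions lie between 14.5% and 36.6% in every list, and regions in all 4 lists between 52.9% and 78.7%.

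Absence from all wild-type lists without a treatment did not mean absence from every wild-type list. Of the 853 regions, 478 (56.0%) had a peak in at least 1 H2O2 or Starve list, 169 (19.8%) in at least 2, and 12 in all 4. That leaves 375 regions on 239 genes that only the 2 KO lists held among the 10 lists, or 28.5% of all KO-only regions. Among UT-only regions, 311 of 852 (36.5%) lay in none of the 6 lists outside the choice, and among regions in all 4 lists 13 of 418 (3.11%). At the other end, 6 KO-only regions (0.456%), 26 UT-only regions (3.05%) and 89 regions of all 4 lists (21.3%) were held by all 6. These counts were not made over all merged regions. The KO-only regions that no other list held were called on lower pileups than the rest. Their median pileup was 142 in the first KO list and 137 in the second, against 180 and 173 for KO-only regions found in 3 or more of the 6 lists, while the median folds were 3.78 and 3.67 against 3.91 and 3.88.

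**Figure D2:**
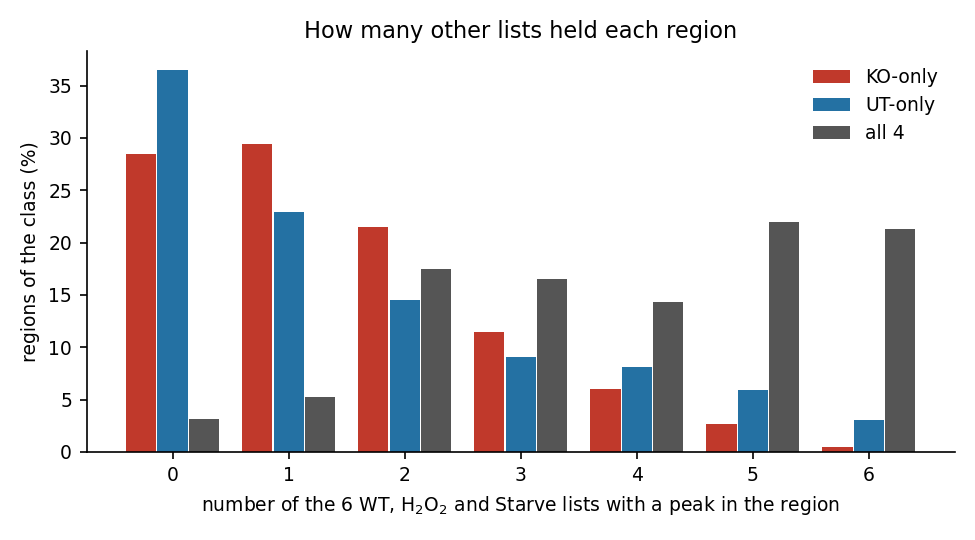
Share of each class (vertical axis, percent) by the number of the 6 WT, H2O2 and Starve lists that held a peak in the region (horizontal axis). Bars for 0 lists stand at 28.5% for KO-only, 36.5% for UT-only and 3.11% for regions in all 4 lists.

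Most transcripts with a KO-only region had no UT peak at all. That was so for 739 of 1316 regions (56.2%), and on the other 577 the nearest UT peak lay a median of 748 nt away. Only 39 KO-only regions (2.96%) had a UT peak within 100 nt. Of the UT-only regions, 655 of 852 (76.9%) lay on transcripts with no KO peak and 21 (2.46%) had a KO peak within 100 nt. Counted by gene, 409 of the 827 KO-only genes lacked a UT peak on every transcript. Of the 539 genes with a region absent from all 4 lists, 246 had no UT or WT peak and 51 had no peak in any of the 8 wild-type lists. Over all 6813 genes with a region, 770 had no UT peak, 504 no UT or WT peak and 117 none in the 8 lists. But 4135 of the 6813 had no KO peak, so they must have a UT peak and dilute this background. Of the 1429 genes with a region in both KO lists, 409 had no UT peak, 246 no UT or WT peak and 51 none in the 8 lists. Such a region is KO-only wherever the gene lacks a UT peak. Of the 512 UT-only genes, 368 had no KO peak, out of 890 genes with a region in both UT lists. Some genes had regions of both kinds. EIF5 had a KO-only region at nt 260 to 469 of NM_001969 and a UT-only region at nt 981 to 1182. The U2 particle protein SF3A1 had them at nt 72 to 219 and nt 1042 to 1186 of NM_005877, and the nuclear matrix protein HNRNPU at nt 56 to 201 and nt 670 to 884 of NM_004501. In all, 37 genes had a region of each kind.

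The 5′ end of transcripts held a larger share of KO-only than of UT-only regions. Their summits fell within the first 300 nt in 925 of 1316 cases (70.3%, 67.8% to 72.7%), against 428 of 852 (50.2%, 46.9% to 53.6%) for UT-only regions and 351 of 418 (84.0%, 80.1% to 87.2%) for regions in all 4 lists. Over all regions, most of which lay in a single UT list, the share was 36.0%. It was 76.4% for the 2356 regions in both KO lists and 64.4% for the 1501 in both UT lists. KO-only and UT-only regions thus each lay below the share of all regions that both lists of their group held. The median summit stood at nt 194 in KO-only regions, nt 300 in UT-only regions and nt 162 in regions of all 4 lists. Beyond nt 1000 lay 9.73% of KO-only, 29.7% of UT-only and 2.63% of shared regions. Within each class, regions also called in WT lay closer to the start. The share within 300 nt was 79.0% for the 463 KO-only regions in a WT list and 65.5% for the 853 in none. In both WT lists the share was 75.7% for 136 KO-only and 85.7% for 105 UT-only regions, and it was 39.1% for the 585 UT-only regions in neither. Regions of KO-only kind that no other list held had a share of 61.6%.

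**Figure D3:**
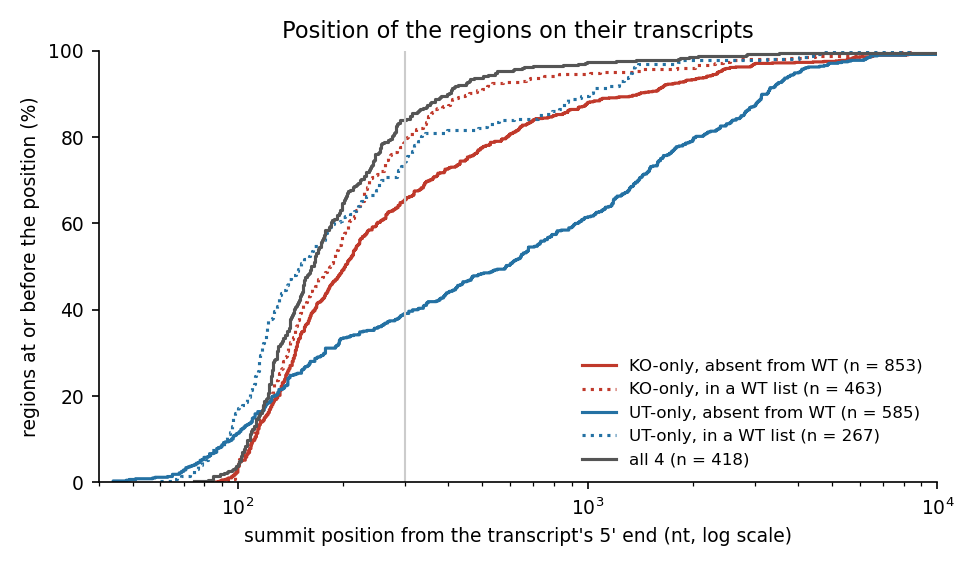
Cumulative share of regions (vertical axis, percent) by the position of the peak summit from the 5′ end of the transcript (horizontal axis, nt, log scale); the grey line marks 300 nt. At that line, regions in all 4 lists stand at 84.0%, KO-only regions absent from WT at 65.5% and UT-only regions absent from WT at 39.1%.

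The lists as a whole differed in the same direction, and by more than the regions held by both lists of a group. Of all peaks, 72.7% and 71.6% in the KO lists had the summit in the first 300 nt, and 37.6% and 31.5% in the UT lists, a difference of 37.6 percentage points. In the WT lists the shares were 55.4% and 73.9%. The median peak was 130 and 126 nt long in KO, 100 nt in each UT list and 117 and 127 nt in WT. Peaks of exactly 100 nt made up 57.6% and 55.9% in UT, 10.9% and 10.7% in KO and 27.5% and 17.1% in WT. The median fold enrichment over local background is a value of the authors that depends on each list's depth and length. It was 3.71 and 3.62 in KO, 3.90 and 4.16 in UT and 3.81 and 3.78 in WT. None of the 3 quantities overlapped between KO and UT. The near-start difference was 14.2 points with a limit of 150 nt. With the 3447 best peaks of each list the difference in length was 12.5 nt and that in fold -2.48, against 28 nt and -0.37 over all peaks. The fold difference was -0.23 without the second UT list and -1.67 with the Starve lists in place of UT. The two-sided exact permutation test gave p = 0.33 for each, adjusted p = 0.33 over the 3 tests (Benjamini-Hochberg), which is the smallest value that 2 lists against 2 allow. The parts played by position, peak length and pileup in the classes were not tested.

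Within the KO lists, KO-only regions had lower folds than regions in all 4 lists and higher folds than regions of other patterns. The median fold of KO-only regions was 3.8 in the first KO list and 3.79 in the second. That of regions in all 4 lists was 4.67 and 4.56, and that of other patterns 3.51 and 3.42. Absence from WT made little difference, with 3.78 and 3.76 for the 853 regions. Median pileups were 162 and 148 for KO-only regions, 191 and 179 for those in all 4 lists and 91 and 84 for those of other patterns. In the UT lists, UT-only regions had median folds of 4.34 and 4.5, close to the 4.39 and 4.45 of the shared regions, on far lower pileups: 64 and 48 against 161 and 137.

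The KO-only regions absent from all 4 wild-type lists that ranked highest by fold in both KO lists are described first. LUC7L, a splicing factor of the U1 particle, had folds of 22.0 and 24.3 and pileups of 475 and 508 in the KO lists at nt 10 to 193 of NM_018032. Its region was also called in the first H2O2 list (2.85) and the first Starve list (5.72). NDUFB6, an accessory subunit of respiratory complex I, had folds of 19.0 and 21.9 at nt 62 to 297 of NM_001199987. No other list held a peak on any transcript of NDUFB6, and 3 of its isoforms carried a KO-only region. LRPAP1, a chaperone of lipoprotein receptors, followed with 14.8 and 15.3 at nt 95 to 369 of NM_002337. That region was called in the second H2O2 list (10.8), and LRPAP1 had 6 UT peaks elsewhere on its transcripts. USP42, a deubiquitinase, had folds of 12.9 and 11.1 far from the start, at nt 2331 to 2538 of NM_032172.

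EIF5, which stimulates GTP hydrolysis by the initiation factor eIF2, had folds of 13.2 and 9.47 on pileups of 1037 and 981, and only the KO lists held this region. ECHS1, the enoyl-CoA hydratase of mitochondrial fatty acid oxidation, had 11.4 and 9.37 at nt 73 to 199 of NM_004092 and was likewise held by the KO lists alone. SSU72, a phosphatase of the RNA polymerase II tail, had 10.8 and 9.08, and was called in both H2O2 lists at 4.43 and 4.35. NFU1, which carries iron-sulfur clusters, had 11.2 and 8.78, and DGUOK, the mitochondrial deoxyguanosine kinase, had 12.3 and 8.72. The abundant protein TPT1 had the highest pileups of the group, 4109 and 3350, with folds of 10.5 and 8.62, and was called in 3 stress lists at 2.60 to 4.08. ISYNA1, which makes inositol phosphate from glucose phosphate, closed the group with 12.1 and 8.44. Of the 12 highest-ranked genes, 6 had their region in KO lists alone: NDUFB6, USP42, EIF5, ECHS1, DGUOK and ISYNA1. On the gene level 5 of the 12 had neither a UT nor a WT peak on any transcript, among them NDUFB6, ECHS1, SSU72 and DGUOK.

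A further 136 KO-only regions were held by both WT lists, and the leading ones are given with their WT values, which rest on other depths and were not tested against KO. KHDRBS3, an RNA-binding splicing regulator, had folds of 20.1 and 18.5 in KO at nt 270 to 492 of NM_006558, and 2.46 and 5.23 in WT. PPIF, the mitochondrial cyclophilin D, had 9.82 and 8.99 in KO and 5.18 and 3.96 in WT. EIF1, which guards start codon selection, had 9.38 and 6.97 in KO, 5.05 and 4.48 in WT, and further peaks in both H2O2 lists and the first Starve list, with neither UT list holding one. METTL17, a factor of mitochondrial ribosome assembly, had 11.5 and 11.2 in KO and 17.1 and 2.71 in WT. MFGE8, a secreted protein that binds phosphatidylserine, had 9.85 and 8.48 in KO and 8.75 and 7.06 in WT, and the endocytic adaptor EPN1 had 9.39 and 7.32 in KO and 7.92 and 6.15 in WT.

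Of the 8 UT-only regions with the highest folds, 6 were seen again in other wild-type lists. ANKRD40 had folds of 17.3 and 15.4 in UT at nt 12 to 377 of NM_052855, 5.87 in the second WT list, 10.5 and 16.8 in H2O2 and 9.59 in the first Starve list, and no KO peak on any transcript. VKORC1L1, an enzyme that reduces vitamin K epoxide, had 13.3 and 17.4 in UT and was called in 7 of the 10 lists. USP32, a deubiquitinase, had 10.6 and 20.7 in UT, 27.7 and 23.6 in Starve and 9.26 in the second WT list. CCM2, a scaffold protein mutated in cerebral cavernous malformations, had 14.7 and 18.6, and MASTL, the Greatwall kinase of mitotic entry, had 10.3 and 15.6. The transcription activator CAMTA1 had 17.6 and 14.4. SZRD1 (13.1 and 13.3) and DCAF7, a WD40 scaffold (14.3 and 10.6, at nt 4535 to 4841 of NM_005828), were held by the UT lists alone. Of the 8 genes, 7 had no KO peak on any transcript, and DCAF7 had 4 KO peaks elsewhere.

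The 6 leading regions in all 4 lists included those of 3 splicing genes, SRSF1, SRSF6 and PRPF8. NPM3, a histone chaperone of the nucleoplasmin family, had folds of 13.9 and 13.0 in KO and 9.99 and 11.6 in UT. SRSF1, a serine- and arginine-rich splicing factor, had 9.43 and 11.6 in KO and 15.5 and 11.3 in UT and was called in all 10 lists. For SRSF6, of the same family, KO gave 27.3 and 25.0 on pileups of 2499 and 2211, and UT 9.08 and 9.03 on pileups of 590 and 445. High folds of SRSF6 were not particular to KO, with 13.1 and 59.4 in H2O2 and 16.7 and 18.1 in Starve. The second WT list gave 6.68 on a pileup of 1917, and the first held no peak there. PRPF8, the core protein of the U5 particle, had 9.11 and 7.69 in KO and 15.5 and 19.3 in UT. PDE6D, which binds prenylated proteins, had 12.4 and 15.2 in KO and 21.4 and 9.04 in UT. The pseudogene SPRNP1 had 9.58 and 7.52 in KO and 15.1 and 10.2 in UT, but it may share reads with its parent gene.

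**Figure D4:**
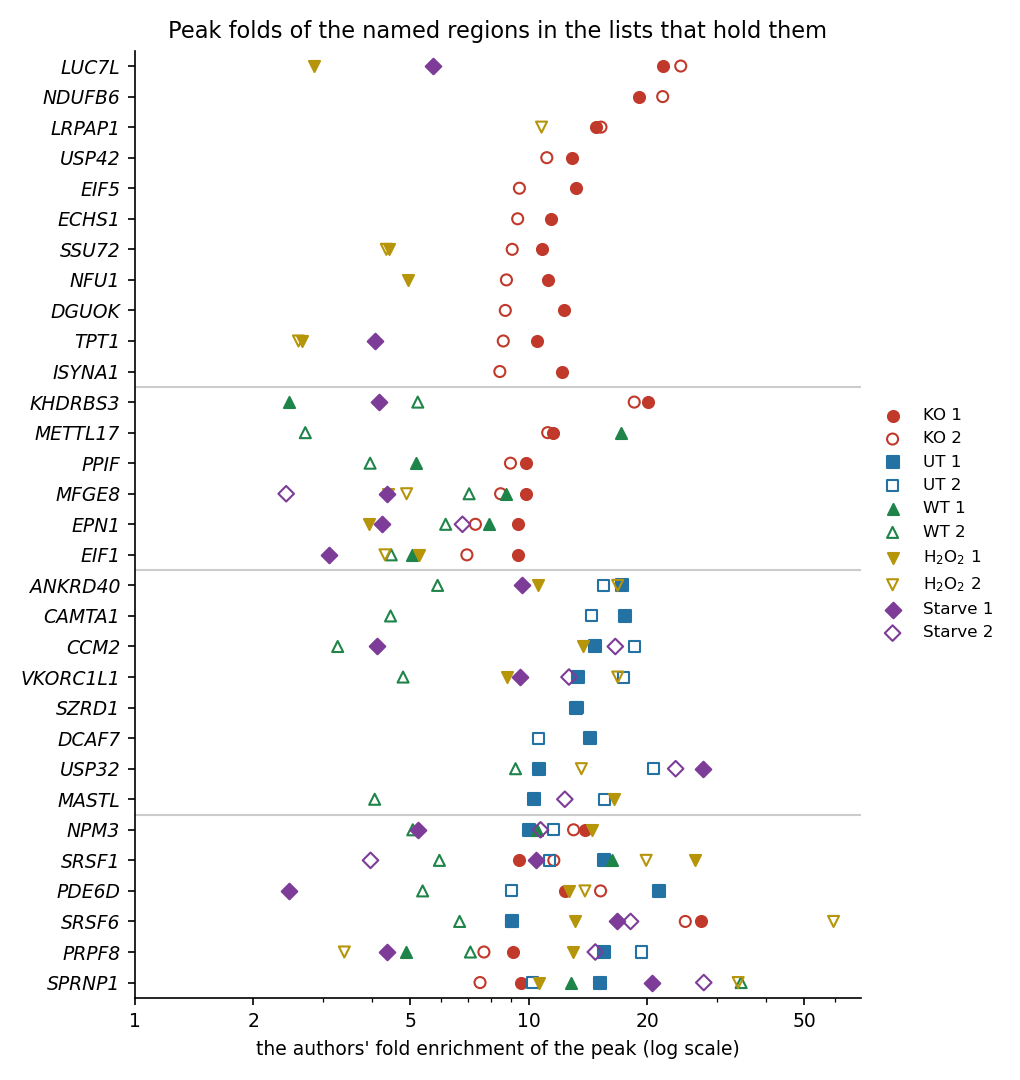
The authors' fold enrichment (horizontal axis, log scale) of the peak in each list that holds one (symbols) for the regions named in the text, by gene (vertical axis), in blocks from top to bottom: KO-only and absent from WT, KO-only and in both WT lists, UT-only, and all 4 lists. In the top block the KO folds run from 8.44 to 24.3 and no UT or WT symbol appears, as the choice of regions fixes.

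Gene lists were read by counts alone. Of the 6813 genes with a region, 827 (12.1%) had a KO-only region, 539 (7.91%) one absent from all 4 wild-type lists, 512 (7.52%) a UT-only region and 270 (3.96%) a region in all 4 lists. In 11 of the 14 lists the share of genes with a KO-only region absent from WT exceeded 7.91%. The genes of these lists also had higher pileups, with medians of 359 and 338 in the KO lists for regions in both of them, against 150 and 141 for other genes, and the part of pileup in the counts was not tested. Of 26 complex I subunit and assembly genes with a region, 5 had a KO-only region (19.2%), each absent from WT. Among these were NDUFB6, NDUFA12, NDUFB7 and NDUFAF3. UT-only regions lay on 0 of the 26, and 2 had a region in all 4 lists (NDUFB8 and NDUFS6). NDUFA12 had folds of 7.34 and 5.61, and NDUFB7 2.66 and 2.68.

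Of 21 proteasome genes with a region, 5 had a KO-only region (23.8%, against 12.1% of all genes): PSMD1, PSMD3, PSMD6, PSMD8 and PSMD12. UT-only regions lay on 0 of the 21, against 7.52% of all genes, and 2 were shared (PSMB4 and PSMD2). PSMD12, a lid subunit of the regulatory particle, had the highest folds of these, 8.17 and 7.50, and its other isoform had a region also called in the second WT list. Of 24 chaperone genes, 7 had a KO-only region, of which 6 were absent from WT: CALR, the endoplasmic reticulum lectin (8.18 and 10.6), HSPD1, the mitochondrial chaperonin (7.25 and 6.13), DNAJA2 (6.08 and 5.38), DNAJB6, HSPA1B and CCT6A. UT-only regions lay on 3 chaperone genes. Among 16 antioxidant genes 6 had a KO-only region, among them the peroxiredoxins PRDX4 (6.27 and 5.90) and PRDX2 (5.94 and 6.66) and heme oxygenase HMOX1 (5.74 and 4.47), and 2 had a UT-only region, PRDX5 and, on another isoform than its KO-only region, GPX4.

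Splicing factors and hnRNP proteins filled all classes. Of 41 genes with a region, 11 had a KO-only region, 7 a UT-only region and 8 a region in all 4 lists. The last share was 19.5%, against 3.96% of all genes. These counts overlap: HNRNPU, SF3A1 and SNRNP70 had both KO-only and UT-only regions. HNRNPD had UT-only regions and regions in all 4 lists. Of 28 ribosomal protein genes, 7 had a KO-only region, each absent from WT, but the folds were low for most of them: RPL13 had 1.10 to 1.48 across 3 isoforms, RPS3 1.95 to 2.76 and RPL37A 2.01 and 1.95. RPS28, with 6.12 and 5.93, and RPL36, with 5.01 and 4.40, were higher. Translation factors differed in their WT calls. Of 40 with a region, 10 had a KO-only region (25.0%) but 3 had one absent from WT (7.5%), namely EIF3F, EIF5 and PABPC1, since EEF2, EIF1, EIF1AX, EIF2S3, EIF4EBP2, GSPT1 and PABPC4 were called in a WT list.

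Among 25 genes of cell division and replication, 8 had a KO-only region and 1 a UT-only region, CCNE1. The replication clamp PCNA had folds of 4.0 and 3.3 on NM_002592, absent from WT, and 9.72 and 7.04 on NM_182649, called in the first WT list, so the call differed between isoforms. Sterol synthesis had 3 KO-only genes of 17 (FDFT1 and LSS among them) and 1 UT-only gene (SC5D). Of 8 histone genes 4 had a KO-only region (H1-4, H2AX and H3-3A among them) and 0 a UT-only region. Of 10 genes that write, erase or read m1A and m6A, WTAP, a subunit of the m6A writer, and YTHDF2, a reader, had a KO-only region, and 0 a UT-only region. In the AlkB and alkylation repair list, with 7 genes, the glycosylase gene MPG was KO-only (3.91 and 3.13) and ASCC2, a partner of ALKBH3 in repair, UT-only (2.69 and 4.52). For lists this short the counts differ from the shares over all genes by a few genes. A count of 0 UT-only genes in such a list lies near the 7.52% of all genes.

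A second readout came from KO libraries treated with a demethylase after immunoprecipitation, a step that lets reverse transcription pass the mark. Deposited windows of 10 nt in steps of 5 nt gave coverage of treated and immunoprecipitated (IP) RNA around KO peaks, scaled so that each run of windows has nearly the same sum. The windows therefore show where coverage moved within a region, not whether it changed in total. The treated values in the 2 KO files were 1 profile: in all 776 runs compared, 1 column was a constant multiple of the other (relative SD below 1e-06), whereas the IP columns differed in every run with a median relative SD of 25.5%. Treated RNA was therefore counted as 1 sample against 2 IP samples.

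With 1 sample against 2, limma called 0 of 24783 windows at an adjusted p under 0.05 (0.0% higher, 0.0% lower), and 4563 windows (18.4%) had an unadjusted p under 0.05. On simulated windows of this design 0 of 200 planted changes were recovered, also at 2 log2 units, so the count of 0 does not bear on the size of the effect. The values are given as a description. The median share of coverage that moved within a region was 9.75% and 9.85% (against the first and second IP) for 741 and 742 KO-only regions absent from WT, 10.5% and 9.89% for 421 KO-only regions in a WT list, and 9.86% and 9.69% for 379 regions in all 4 lists. The treated profile lay above both IP samples in 38.6% of all windows and below both in 38.4%. For KO-only regions absent from WT the shares were 40.1% and 37.6%, and for regions in all 4 lists 39.9% and 37.4%. With 1 profile set against 2 samples, many windows lie outside both even without a change. The IP samples were not set against each other in these ways, so the shares and the moved coverage do not measure an effect of treatment.

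The mean profile around the summit was computed for each class, with no test between them. In KO-only regions absent from WT, treated coverage exceeded IP by 0.33 and 0.35 units at 40 nt after the summit, on IP levels of 6.56 and 6.53, and the difference was -0.12 and -0.13 at 40 nt before the summit. In KO-only regions that a WT list held, it exceeded IP by 0.43 and 0.27 units at 40 nt after the summit. In regions of all 4 lists the difference was -0.25 and -0.15 units at the summit and 0.24 and 0.27 at 100 nt before it, and at 40 nt after it the values had opposite signs (0.11 and -0.12). Since both values of a pair rest on 1 treated profile, they show the spread of IP alone.

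**Figure D5:**
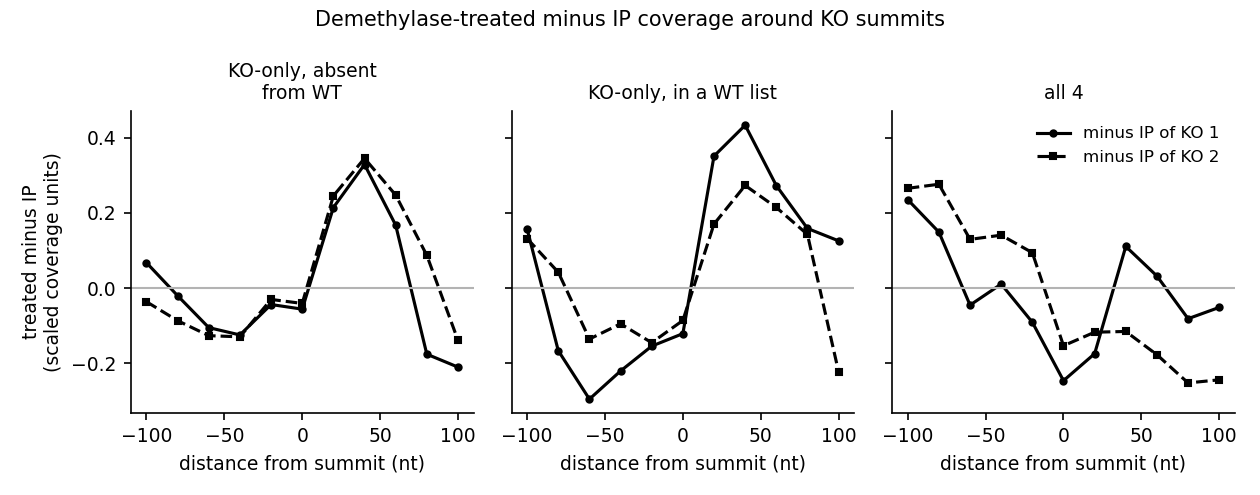
Mean treated minus IP coverage (vertical axis, scaled coverage units) by distance from the KO summit (horizontal axis, nt, bins of 20 nt), for 3 classes (panels), with the 1 treated profile set against each KO IP sample (solid and dashed lines). KO-only regions have their highest values at 40 nt after the summit, 0.33 and 0.35 units in the left panel. Regions in all 4 lists have 0.11 and -0.12 there (right panel).

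Windows at the same positions in both KO files were found for 14 of the 40 named genes. In HSPD1, the window with the highest treated value relative to IP, at nt 186 to 195 of NM_002156, had IP values of 2.37 and 2.64 and treated values of 5.81 and 6.19, and the one with the lowest, at nt 51 to 60, had 3.24 and 3.37 in IP and 1.18 and 1.26 after treatment. In PRDX4 treated coverage was 5.52 and 5.29 against 2.85 and 3.18 in IP at nt 211 to 220, and 2.95 and 2.83 against 5.68 and 5.04 at nt 81 to 90. In LUC7L it was 6.28 and 6.30 against 4.13 and 3.81 at nt 156 to 165, and 4.07 and 4.08 against 5.95 and 6.27 at nt 56 to 65. The highest window relative to IP lay 3′ of the lowest in 11 of the 14 genes, these among them, and 5′ of it in 3 (NDUFB6, SRSF6 and NDUFA12). The same count was not made over the other regions with matched windows, so no background share stands beside it. NDUFB6 had 3.41 and 3.42 against 2.74 and 2.43 at nt 107 to 116 and 1.47 and 1.47 against 3.03 and 2.59 at nt 267 to 276. NPM3, whose region lay in all 4 lists and which is among the 11, had 6.48 and 6.60 against 4.76 and 4.63 at nt 156 to 165 and 3.34 and 3.40 against 4.98 and 5.18 at nt 56 to 65. These windows were picked for their values, and none passed adjustment (limma, adjusted p = 0.195 for the highest HSPD1 window).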

How the data were processed

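m1A immunoprecipitation of HEK293T RNA was read from 10 peak lists (2 each for KO, UT, WT, H2O2 and Starve) and 2 KO window files. Trim Galore, HISAT, MACS2 and build hg19 are named in the submitters' processing notes, without versions or order. The authors deposited 1 peak list per replicate, with positions on RefSeq transcripts. Pileup, as deposited, is a signal: read coverage at a peak's summit. The deposited fold enrichment is a ratio over local background, and the deposited −log10 p-values and −log10 q-values are as the authors' caller gave them. The deposited window coverage is a signal whose values sum to nearly the same total in each run of windows, as read from the values. No source used here gives the making of the windows or the input behind a list. The labels of the untreated stress controls name the Starve lists, whereas separate lists carry the name UT and were used as such. No label or column gives library depth.

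Peaks were merged at 1 nt of overlap (Python 3.11.15, pandas 2.3.3). Gene symbols came from a RefSeq table of GRCh38.p14, used for names only, with 17019 of 17315 transcripts matched. Named genes were ranked by the lower of a region's fold percentiles within its lists: 12 KO-only regions absent from WT, 6 KO-only regions in both WT lists, 8 UT-only regions, 6 regions in all 4 lists, and 12 genes of the 14 gene lists. A few genes that the rule or the lists hold are not reported here. The members and lists were chosen with earlier results of these data known. Windows with a mean coverage of 1 or more were tested with limma 3.58.1 (R 4.3.3) on log2(coverage + 1). The design assumed 2 treated samples, and the treated profiles, identical up to a constant in each run, were counted as 1. Merging and fits were tested on simulated data. Alternatives were other overlaps, fold and q limits, equal list lengths, 1 transcript per gene, genes, widened peaks, other lists in place of UT, omitted replicates, and the replicate block. WT window files were not used. Since separate cultures are not named, p-values reflect only variation among these samples, possibly technical.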

Additional observations from a re-analysis of the deposited data

How the results depend on the processing

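Counts of regions moved by over 1.5 times with the fold limit, isoforms, list length and the number of lists required. With peaks of 4-fold or more, KO-only, UT-only, shared and wild-type-absent KO-only regions numbered 653, 408, 104 and 478. With 1 transcript per gene they numbered 819, 507, 278 and 527, and by gene 416, 1001, 511 and 250. With equal list lengths UT-only regions fell to 225 and shared ones to 278. Leaving out 1 replicate gave 1593 to 2051 KO-only, 948 to 8054 UT-only, 514 to 763 shared and 908 to 1458 wild-type-absent regions, since fewer lists then have to agree. An overlap of 50 nt, a −log10 q of 5, removal of peaks beyond 110000 nt, and the other lists' peaks widened by 100 nt moved no count by over 1.5 times. With the Starve lists in place of UT, an alternative chosen after seeing the data like the widening, there were 978, 948, 473 and 650. Of the 12 leading KO-only genes, 5 kept a call in no wild-type list when counted by gene.

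The near-start share, peak length and fold kept their direction in the 8 to 10 settings tried for each. Without 1 replicate the differences were 34.6 to 40.7 percentage points, 26 to 30 nt and -0.50 to -0.23. With the replicate block, sign flips of same-numbered differences left them at 37.6, 28 and -0.37 with an exact permutation p of 0.5, the smallest possible. Counting the treated window columns as 2 samples would call 5715 windows, and 4198 with the replicate block. Both counts treat 1 profile as replicates. Leaving out an IP sample could not be fitted, as no residual degree of freedom remains.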
